A study of Schmidtea mediterranea with 5 samples.

Results

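Of 28040 contigs of the dd_Smed_v6 transcriptome of the planarian Schmidtea mediterranea, 46 were lost by 16 h post amputation (hpa) in single-cell RNA-seq of cells from the post-pharyngeal body region. They were selected on the measured values themselves. Unique molecular identifiers (UMIs) were summed over the cells of each library and given per 1000000 UMIs (UPM). A contig was taken when it had 100 or more UMIs at 0 hpa and when its level there, with 1 UPM added, was at least 2-fold that of each of the 3 libraries at 16 hpa, unless it stood 4-fold higher at 6 hpa than in all other libraries. Of the 11020 contigs with 100 or more UMIs at 0 hpa, 46 met these conditions, or 0.417%. The 6 hpa condition removed none, and the limit of 200 contigs was not reached. The fall between 0 and 16 hpa is therefore what defined the 46 contigs, and its size is given as a description without a test.

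By the labels, all 5 libraries came from CIW4 animals fed liver and cut 7 days after the 4th feeding, whereas the methods of the study give 4 feedings only for replicate 2 at 16 hpa. All were sorted through the X-insensitive gate, a gate on DNA content that leaves out dividing stem cells. Fragments of many animals were pooled into 1 library per condition. There was 1 library of cells at 0 hpa, 1 of anterior-facing wounds at 6 hpa, 2 of anterior-facing wounds at 16 hpa and 1 of posterior-facing wounds at 16 hpa. In 16 hpa anterior-facing replicate 2 the animals had been given unc-22 dsRNA, a control RNAi, in 4 feedings, whereas the other libraries had no RNAi. The 3 latest libraries carry 18 hpa in their labels but 16 hpa in the study, whose name is kept. By their labels the 6 hpa cells were gated on calcein, medium and high, and the cells of the other 4 libraries on low propidium iodide. The methods of the study name calcein for the 6 hpa cells only, and give propidium iodide for them as well but do not state it for replicate 2. Time and the calcein gate cannot be told apart for the 6 hpa library. The 0, 6 and 16 hpa libraries held 5166 cells, 3052 cells and between 4079 and 6935 cells, with 7274118 to 25152496 UMIs in cells per library. The median UMIs per cell were 3834.5 at 0 hpa, 1974 at 6 hpa and 3643 to 4085 at 16 hpa. Between 0 and 11 cell barcodes were shared by any pair of libraries. Cells were clustered without the 46 contigs, and clusters were called X-like where contigs listed as markers of a class led them.

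The planarian intestine is a branched, blind-ended gut of absorptive phagocytes, which take up and digest food inside the cell, and of goblet cells, a secretory type. It lies next to parenchymal cells, nerves, muscle and a protonephridial system, under an epidermis that is partly ciliated. Wounding changes gene expression within hours, and fragments then remodel the tissue that remains. The annotation table of the study that was used lists 1200 contigs, and only 2 of the 46 are among them, both with a human name, dd_Smed_v6_1062_0 (GAA, in human the lysosomal acid alpha-glucosidase, with MGAM2 as the nucleotide match) and dd_Smed_v6_10499_0 (ERBB4, in human a receptor tyrosine kinase of the EGF receptor family). A second table of the study gave another name for dd_Smed_v6_1062_0, and none of the 618 contigs named in both had the same name, so that these names are uncertain. The other 44 are not in that table, which does not say that they lack a human match, and are given by contig only.

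The 46 contigs fell into groups by the cluster that held the most of their UMIs. That cluster was intestine-like for 22 contigs, neuron-like for 6, ciliated-like for 6, epidermal lineage-like for 5, parenchyma-like for 4 and muscle-like for 1, and it was cluster 6, which was not named, for 2. Among the 22 intestine-like contigs, 17 had the same cell as their highest cell at 0 hpa, and this cell alone held from 51.1 to 96.4% of their 0 hpa UMIs. These 17 contigs and the other 29 are described separately.

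**Figure D1:**
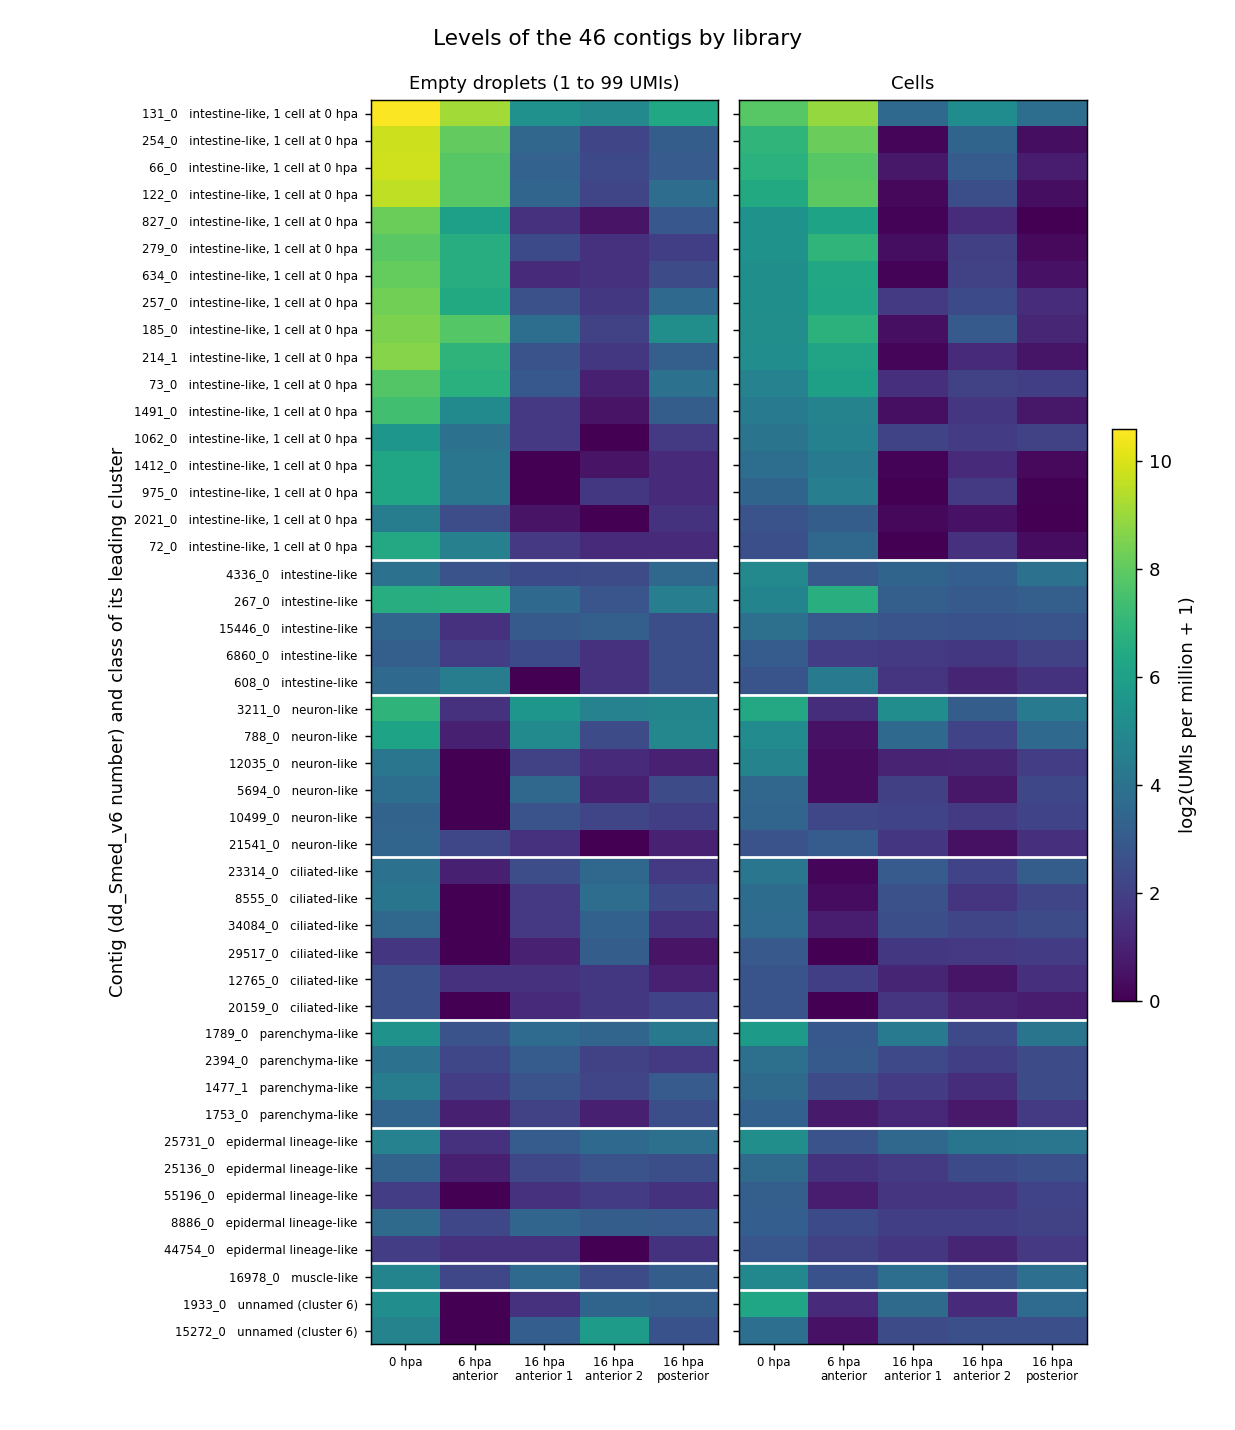
Levels of the 46 contigs (rows, grouped by the class of their leading cluster and ordered within it by the level at 0 hpa) in the 5 libraries (columns), in empty droplets on the left and in cells on the right, as log2(UPM + 1). The uppermost 17 rows are bright at 0 and 6 hpa and dark at 16 hpa in both panels, whereas most other rows are already dark at 6 hpa.

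The 17 contigs were dd_Smed_v6_827_0, dd_Smed_v6_214_1, dd_Smed_v6_122_0, dd_Smed_v6_66_0, dd_Smed_v6_254_0, dd_Smed_v6_279_0, dd_Smed_v6_634_0, dd_Smed_v6_257_0, dd_Smed_v6_131_0, dd_Smed_v6_1491_0, dd_Smed_v6_73_0, dd_Smed_v6_1412_0, dd_Smed_v6_185_0, dd_Smed_v6_2021_0, dd_Smed_v6_1062_0, dd_Smed_v6_975_0 and dd_Smed_v6_72_0. They included the contigs with the largest ratios of 0 hpa to the highest 16 hpa library, 16.7 for dd_Smed_v6_827_0, 15.2 for dd_Smed_v6_214_1 and 15.05 for dd_Smed_v6_122_0. dd_Smed_v6_254_0 had 123, 285, 0.121, 9.70 and 0.313 UPM in cells at 0 hpa, 6 hpa, 16 hpa anterior-facing replicates 1 and 2 and 16 hpa posterior-facing. Its 95% Poisson interval was 8.522 to 10.997 in 16 hpa anterior-facing replicate 2, against 118 to 128 at 0 hpa, and these intervals, like all others here, cover counting error only. In the same order dd_Smed_v6_122_0 had 86.4, 242, 0.181, 4.81 and 0.313 UPM. Both were highest at 6 hpa, and replicate 2 was the highest of the 16 hpa libraries.

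dd_Smed_v6_131_0, which had the highest level of the 46 contigs at 0 hpa, had 229, 478, 11.3, 34.8 and 13.3 UPM in this order of libraries. dd_Smed_v6_827_0 had 41.5, 69.1, 0.0603 and 1.55 UPM in the first 4 libraries and none at 16 hpa posterior-facing, where 3 counts would give 0.156. dd_Smed_v6_1062_0, the GAA-named contig, had 15.8, 24.6, 3.56, 2.54 and 3.18 UPM. Its share of 0 hpa UMIs in the leading cell described next, 51.1%, was the lowest of the 17.

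dd_Smed_v6_66_0 had 109, 228, 0.603, 7.55 and 0.782 UPM, dd_Smed_v6_279_0 had 40.8, 122, 0.301, 3.02 and 0.209, and dd_Smed_v6_634_0 had 38.3, 81.2, 0.0603, 3.26 and 0.417. dd_Smed_v6_214_1 had 35.3, 73.0, 0.121, 1.39 and 0.521, and dd_Smed_v6_257_0 had 37.7, 75.6, 2.47, 4.13 and 1.56. With 1 UPM added to each level, which damps the folds of low levels, the ratio of the highest to the lowest 16 hpa library was largest in dd_Smed_v6_254_0 (9.55), dd_Smed_v6_185_0 (5.87) and dd_Smed_v6_66_0 (5.34). In dd_Smed_v6_185_0 the levels were 36.6, 110.4, 0.362, 7.00 and 1.20.

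A single cell carried the 0 hpa level of these contigs. It had 25119 UMIs, the most of any cell at 0 hpa, from 2159 contigs, and 62.7% of its UMIs came from the 17 contigs. Of the 2445 UMIs of dd_Smed_v6_254_0 at 0 hpa, 2284 were in this cell. The same was so for 4069 of the 4570 UMIs of dd_Smed_v6_131_0. It lay in cluster 22, which was intestine-like and held 31 cells at 0 hpa, and it had UMIs of 4 of the 8 intestine markers in the files. No doublet caller was run, and the upper limit of 2500 genes was the only filter on doublets.

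Cells with more than 10% of their UMIs in the 17 contigs were rare in every library. There was 1 at 0 hpa, 3 at 6 hpa, with 68.4, 28.3 and 12.4%, none in 16 hpa anterior-facing replicate 1, 1 in replicate 2, with 31.3%, and none at 16 hpa posterior-facing. All 5 were in cluster 22, and each had UMIs of at least 16 of the 17 contigs. Of the 8 intestine markers, however, the 3 cells at 6 hpa had UMIs of 1, 0 and 0, in the same order, and the cell in replicate 2 of 1, so that 4 of the 5 cells had at most 1 marker. The 1 cell at 0 hpa held 15739 of the 17353 UMIs of the 17 contigs in that library, the 3 cells at 6 hpa 12558 of 14113, and the 1 cell in 16 hpa anterior-facing replicate 2 1972 of 2297. In 16 hpa anterior-facing replicate 1 and at 16 hpa posterior-facing, where no such cell was found, the cells held 356 and 495 UMIs of these contigs in all. Among barcodes with 100 or more UMIs that were not taken as cells, 10 at 0 hpa and 4 at 6 hpa were over 10%. None was found in the 16 hpa libraries. All 10 at 0 hpa had too few UMIs to be taken as cells, so that the count of 1 there holds for cells only.

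**Figure D2:**
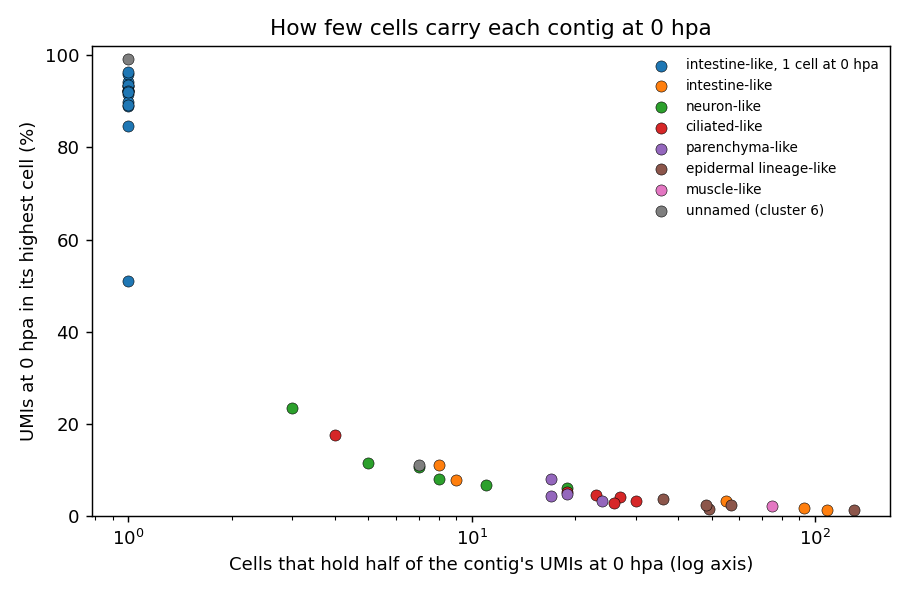
For each of the 46 contigs, the number of cells that together held 50% of its UMIs at 0 hpa (x axis, log scale) and the percentage of its UMIs in its highest cell (y axis), coloured by class. The 17 intestine-like contigs at the left had 51.1% or more of their UMIs in 1 cell, as had dd_Smed_v6_1933_0 in cluster 6, and the other 28 contigs needed 3 to 130 cells.

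Without this cell, the rule gave 29 contigs in place of 46, and none of the 17 was among them. Such dependence on 1 cell was uncommon, since 29 of the 11020 contigs with 100 or more UMIs at 0 hpa had 50% or more of them in 1 cell, and 18 of the 46 contigs did. When the 5 cells over 10% were left out of all libraries, the summed level of the 17 contigs was 81.1 UPM at 0 hpa, 214 at 6 hpa and 21.5, 12.9 and 25.8 in the 16 hpa libraries. Then 8 of the 17 contigs were at least 2-fold above each 16 hpa library at 0 hpa, of which 3 still had the 100 UMIs that the rule asks for. These were dd_Smed_v6_122_0, dd_Smed_v6_66_0 and dd_Smed_v6_254_0, with at most 0.782 UPM in any 16 hpa library, against 5.73, 9.25 and 8.09 at 0 hpa.

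Empty droplets, barcodes with 1 to 99 UMIs, are commonly taken to hold RNA that was free in the cell suspension, and the rule did not use them. There the 17 contigs summed to 6638 UPM at 0 hpa, 2180 at 6 hpa and 115.3, 59.4 and 210.0 in 16 hpa anterior-facing replicates 1 and 2 and 16 hpa posterior-facing. All 17 contigs were at least 2-fold higher in empty droplets at 0 hpa than in each 16 hpa library, against 0.78% of the 11020 contigs. dd_Smed_v6_254_0 had 885, 266, 10.4, 3.65 and 7.83 UPM in empty droplets, and dd_Smed_v6_131_0 had 1496, 555, 40.5, 30.6 and 80.3. At 0 hpa 8160 empty droplets shared the 11881 UMIs of the 17 contigs, at most 25 in 1 droplet, and at 16 hpa 117 to 416 droplets had any. Droplets with only 1 UMI of the 17 contigs gave 48.4% of these UMIs at 0 hpa. In the remaining libraries they gave 86.3 to 94.4%. In what form this RNA entered the droplets was not tested. The empty droplets came from the same libraries as the cells, with 1 library at 0 hpa, and are not separate samples.

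**Figure D3:**
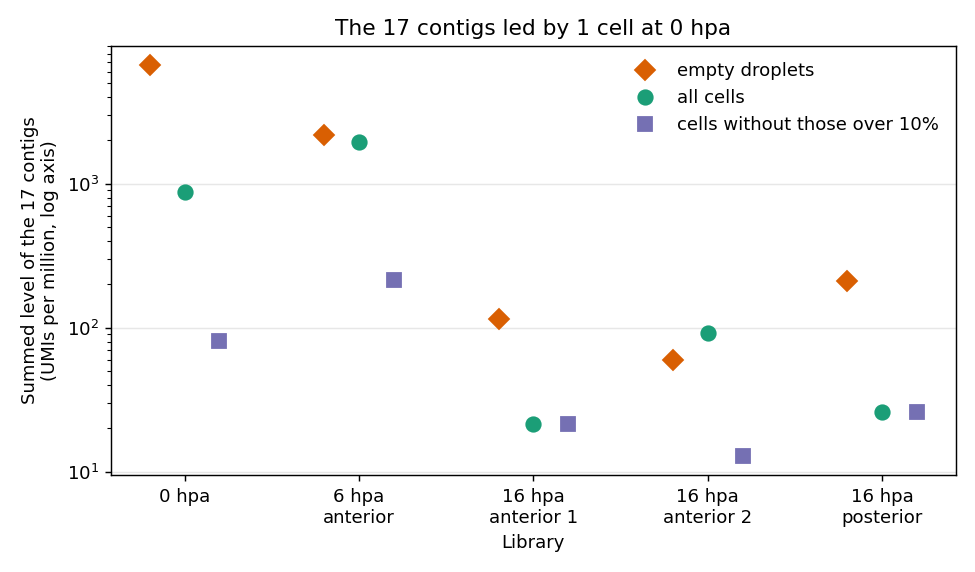
Summed level of the 17 contigs (UPM, log axis) in each library, in empty droplets (diamonds), in all cells (circles) and in cells without the 5 cells over 10% (squares). Empty droplets had 59.4 to 210.0 at 16 hpa, against 6638 at 0 hpa, and the cells without those over 10% had 12.9 to 25.8 at 16 hpa, against 81.1 at 0 hpa.

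At 0 hpa each of the 17 contigs was higher in empty droplets than in cells, by 2.82-fold to 14.0-fold with 1 UPM added to both levels, with a median of 7.16. The highest ratios were those of dd_Smed_v6_72_0 (14.0), dd_Smed_v6_214_1 (11.1) and dd_Smed_v6_185_0 (9.66). The median ratio over the 17 contigs was 1.003 at 6 hpa, 2.76 and 0.640 in 16 hpa anterior-facing replicates 1 and 2 and 4.68 at 16 hpa posterior-facing. In replicate 2, which held 1 cell over 10%, 1 of the 17 contigs was higher in empty droplets. Over the 5 libraries, 15 of the 17 contigs passed the edgeR quasi-likelihood test as higher in empty droplets than in cells, and 6 of the other 29 did. These 21 contigs compare with 10.5% of all contigs tested. dd_Smed_v6_214_1 was higher by 2.88 ± 0.40 on the log2 scale (SE, n = 5 libraries, adjusted p = 0.000855), and dd_Smed_v6_254_0 by 1.95 ± 0.59 (adjusted p = 0.0340). The 2 of the 17 that did not pass were dd_Smed_v6_2021_0 and dd_Smed_v6_1062_0. Without the 0 hpa library, 8 contigs passed in place of 21, and dd_Smed_v6_254_0 did not (edgeR adjusted p = 0.239), nor did it without the 16 hpa posterior-facing library (adjusted p = 0.0729).

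Barcodes with 100 or more but under 1000 UMIs, also unused by the rule, gave a like picture, in that 16 of the 17 contigs were at least 2-fold higher at 0 hpa than in each 16 hpa library, against 1.22% of the 11020 contigs. In barcodes with more than 2500 genes only 3 of the 17 were. dd_Smed_v6_254_0, 1 of these 3, had at most 0.204 UPM there in the 16 hpa libraries, against 3.79 at 0 hpa. dd_Smed_v6_131_0 was not among the 3. It had 11.1, 3.91 and 27.1 UPM there in the 16 hpa libraries, against 5.01 at 0 hpa. In cells that were not intestine-like the 17 contigs summed to 62.7 UPM at 0 hpa, 132 at 6 hpa and 7.94, 4.49 and 11.5 in the 16 hpa libraries. These cells were low and high in the same libraries as the empty droplets, except that 6 hpa was above 0 hpa. What share of these levels was free RNA was not tested.

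The intestine-like class as a whole was present in all libraries. It made up 7.12% of cells at 0 hpa, 8.55% at 6 hpa and 6.57, 7.04 and 7.06% in 16 hpa anterior-facing replicates 1 and 2 and 16 hpa posterior-facing, although cluster 22 had 209 of its 312 cells at 6 hpa. The 8 intestine markers in the files summed to 956 UPM at 0 hpa, 1917 at 6 hpa and 935, 873 and 855 in the 16 hpa libraries, and none of the 8 was at least 2-fold higher at 0 hpa than in each 16 hpa library in cells. In empty droplets they summed to 1021, 1133, 878, 893 and 891, with 2 of 8 at least 2-fold higher at 0 hpa. Of the 4 contigs listed for lysosome and digestion, dd_Smed_v6_1062_0 was the only one at least 2-fold higher at 0 hpa in cells.

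Each class was set against all other cells within libraries with edgeR's quasi-likelihood test. Contigs had been grouped by the cluster that held the most of their UMIs, so that a higher level in their own class was largely fixed, and the fold changes describe how far each contig was restricted to it. In intestine-like cells 26 of 45 contigs tested were higher and 18 lower, against 22% of all contigs tested that were higher. The 26 were the 22 contigs led by an intestine-like cluster, of which 17 shared their highest 0 hpa cell, and 4 others. dd_Smed_v6_267_0 was higher by 7.85 ± 0.30 (SE, log2 scale, n = 5 libraries, adjusted p = 1.79e-10), dd_Smed_v6_131_0 by 7.27 ± 0.41 (adjusted p = 6.58e-09) and dd_Smed_v6_1062_0 by 5.79 ± 0.30 (adjusted p = 2.63e-09). Without the leading cell at 0 hpa the same 26 contigs were called, but the other cells over 10% were kept there. In intestine-like cells the 17 contigs summed to 9411, 16679 and 1104 UPM at 0 hpa, 6 hpa and 16 hpa anterior-facing replicate 2. With all 5 cells over 10% left out, the sums were 278, 910 and 112. In cells that were not intestine-like they were 62.7, 132 and 4.49. The fold changes without all 5 cells were not tested.

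Among the intestine-like contigs, 5 did not depend on that cell, dd_Smed_v6_267_0, dd_Smed_v6_608_0, dd_Smed_v6_4336_0, dd_Smed_v6_6860_0 and dd_Smed_v6_15446_0. dd_Smed_v6_267_0 had 26.6, 98.4, 8.26, 6.92 and 8.29 UPM at 0 hpa, 6 hpa, 16 hpa anterior-facing replicates 1 and 2 and 16 hpa posterior-facing, and dd_Smed_v6_608_0 had 5.67, 18.8, 2.05, 1.11 and 1.93. They had the highest and the second highest ratio of 6 hpa to 0 hpa of the 46 contigs, 3.61 and 2.97 with 1 UPM added, followed by dd_Smed_v6_185_0 with 2.96. Inside cluster 22 dd_Smed_v6_267_0 remained at 2134, 2055 and 2951 UPM in the 16 hpa libraries, against 4329 at 0 hpa. At 6 hpa, when this cluster had the most cells, its level inside the cluster was 1103. dd_Smed_v6_4336_0 had 30.7, 6.74, 9.83, 7.87 and 14.5 UPM and dd_Smed_v6_6860_0 7.43, 2.75, 2.47, 2.27 and 3.18. Both had the most UMIs in cluster 4. dd_Smed_v6_15446_0, at 14.2, 6.74, 5.67, 5.29 and 5.84, was spread over classes, with 14.2% of its UMIs in its leading cluster. Its 16 hpa libraries were within 1.09-fold of each other with 1 UPM added. Although led by an intestine-like cluster, it had a higher log2 fold change in ciliated-like cells (1.95 ± 0.41) than in intestine-like cells (1.42 ± 0.29).

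In neuron-like cells 10 of the 46 contigs were higher and 31 lower. The 10 were the 6 led by neuron-like clusters and 4 led by a ciliated-like one. The share of higher contigs was not above the 27% of all contigs tested. The 4 were dd_Smed_v6_23314_0 (log2 fold change 2.78), dd_Smed_v6_20159_0 (2.64), dd_Smed_v6_34084_0 (2.64) and dd_Smed_v6_29517_0 (2.31). dd_Smed_v6_3211_0 was higher by 6.11 ± 0.27 (SE, log2 scale, n = 5 libraries, edgeR adjusted p = 1.54e-13) and dd_Smed_v6_12035_0 by 6.76 ± 0.29 (adjusted p = 7.25e-14). dd_Smed_v6_3211_0 had 84.1, 1.65, 36.1, 7.79 and 19.4 UPM at 0 hpa, 6 hpa, 16 hpa anterior-facing replicates 1 and 2 and 16 hpa posterior-facing. dd_Smed_v6_12035_0 had 26.1, 0.275, 1.02, 1.15 and 2.76, and dd_Smed_v6_788_0 had 33.5, 0.412, 11.3, 3.34 and 11.2. In contrast to the 17 contigs, these 3 were lowest at 6 hpa, and they stood in few cells, since 50% of their 0 hpa UMIs were in 11 cells for dd_Smed_v6_3211_0, 8 for dd_Smed_v6_12035_0 and 7 for dd_Smed_v6_788_0.

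Cluster 17, which led 5 of the 6 contigs, had 152 cells at 0 hpa, 15 at 6 hpa and 112, 126 and 85 in the 16 hpa libraries. Inside it, dd_Smed_v6_3211_0 was at 1218, 432 and 1386 UPM in 16 hpa anterior-facing replicates 1 and 2 and 16 hpa posterior-facing, against 4111 at 0 hpa. dd_Smed_v6_12035_0 was between 43.6 and 205 in the 16 hpa libraries there, against 1206 at 0 hpa. The ERBB4-named contig, dd_Smed_v6_10499_0, had 9.89, 3.71, 3.44, 2.46 and 3.39 UPM over all cells. It was higher in intestine-like cells by 3.17 ± 0.31 and in neuron-like cells by 2.63 ± 0.43 (SE, log2 scale, n = 5 libraries, edgeR adjusted p = 1.38e-06 and 2.52e-05), so that it belonged to no single class. dd_Smed_v6_21541_0, led by cluster 30, had 5.57, 7.56, 2.23, 0.398 and 1.67 UPM, and 3 cells held 50% of its 0 hpa UMIs.

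**Figure D4:**
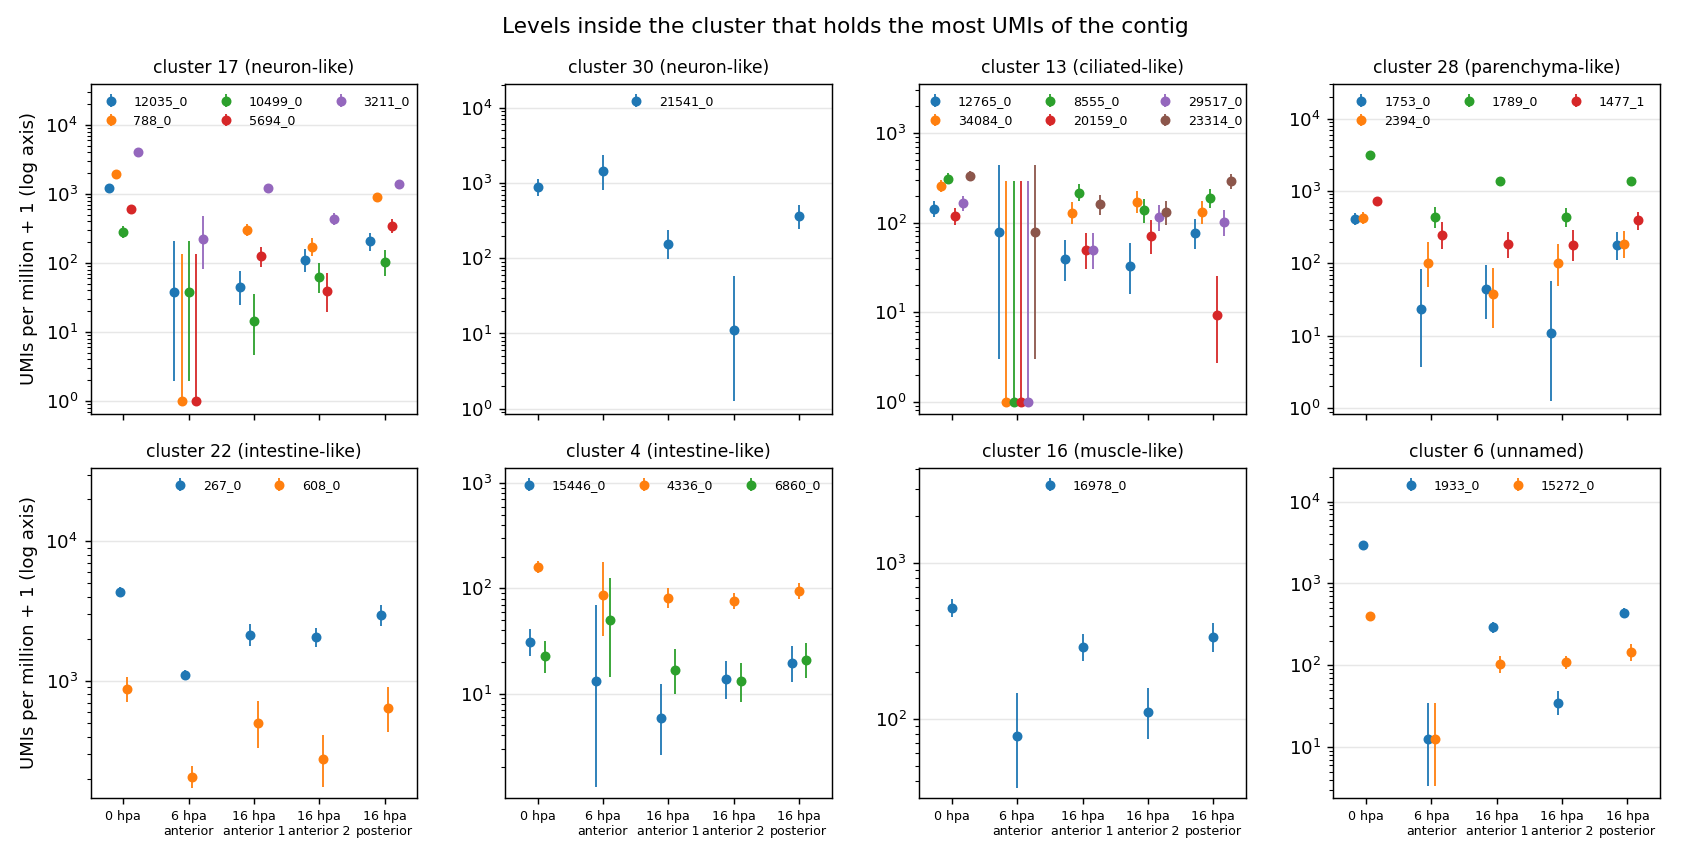
Levels (UPM with 1 added, log axis) of 24 of the 29 other contigs inside the cluster that held the most of their UMIs, by library, with 95% Poisson intervals that cover counting error only. Points at 1 had no UMI, and the 5 epidermal lineage-like contigs are not drawn. The level at 0 hpa was above that of each 16 hpa library for every contig, as for dd_Smed_v6_3211_0 in cluster 17 (at most 1386 at 16 hpa, against 4111 at 0 hpa). This direction was largely fixed by the rule, which used the same cells.

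In ciliated-like cells 9 of 45 contigs tested were higher and 26 lower. The 9 were the 6 led by cluster 13, which was ciliated-like, and 3 others. Of the 6, 4 were also higher in neuron-like cells, by a smaller fold, as given above. The 3 others were dd_Smed_v6_8886_0 (log2 fold change 2.41), dd_Smed_v6_3211_0 (2.13), led by a neuron-like cluster, and dd_Smed_v6_15446_0 (1.95). The share of higher contigs, 9 of 45, was not above the background, 25% of all contigs tested. dd_Smed_v6_8555_0 was higher by 8.27 ± 0.75 (SE, log2 scale, n = 5 libraries, edgeR adjusted p = 1.54e-05) and dd_Smed_v6_23314_0 by 5.47 ± 0.35 (adjusted p = 1.72e-06). dd_Smed_v6_23314_0 had 16.8, 0.137, 7.30, 3.34 and 7.61 UPM at 0 hpa, 6 hpa, 16 hpa anterior-facing replicates 1 and 2 and 16 hpa posterior-facing, dd_Smed_v6_8555_0 had 12.2, 0.275, 5.12, 2.03 and 3.60, and dd_Smed_v6_34084_0 had 12.2, 0.825, 4.76, 3.62 and 4.59. dd_Smed_v6_29517_0 had 6.83 UPM at 0 hpa, no UMI at 6 hpa, where 3 counts would give 0.412, and 2.29, 2.35 and 2.71 at 16 hpa. Cluster 13 itself had 284 cells at 0 hpa, 7 at 6 hpa and 149, 195 and 157 in the 16 hpa libraries. Inside it, dd_Smed_v6_23314_0 was at 158, 129 and 287 UPM at 16 hpa, against 328 at 0 hpa. Its smallest ratio of 0 hpa to a 16 hpa library there, with 1 UPM added, was 1.14. A higher level at 0 hpa was largely fixed by the rule, which used the same cells. The cell counts are not scaled to the cells of each library.

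In parenchyma-like cells 8 of 45 contigs tested were higher, the 4 led by cluster 28, which was parenchyma-like, and 4 others, and 32 were lower. Of all contigs tested 21.9% were higher, so that the share was not above the background. dd_Smed_v6_1789_0 was higher by 7.10 ± 0.19 and dd_Smed_v6_1477_1 by 5.77 ± 0.27 (SE, log2 scale, n = 5 libraries, edgeR adjusted p = 1.20e-16 and 2.25e-13). dd_Smed_v6_1789_0 had 54.6, 6.46, 19.3, 4.06 and 16.4 UPM in the same order of libraries, dd_Smed_v6_2394_0 had 14.3, 7.01, 4.04, 2.90 and 4.48, and dd_Smed_v6_1477_1 had 11.5, 4.54, 2.65, 1.63 and 4.43. The cluster had 81 cells at 0 hpa, 26 at 6 hpa and 41, 30 and 31 at 16 hpa. Inside it dd_Smed_v6_1789_0 was at 1351, 432 and 1351 UPM at 16 hpa, against 3177 at 0 hpa.

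In epidermal lineage-like cells 3 of the 46 contigs were higher, all among the 5 led by such clusters, and 41 were lower. The share of higher contigs was far below the 28% of all contigs tested. dd_Smed_v6_25731_0 was higher by 4.96 ± 0.30 and dd_Smed_v6_55196_0 by 5.26 ± 0.41 (SE, log2 scale, n = 5 libraries, edgeR adjusted p = 7.40e-07 and 3.18e-06). dd_Smed_v6_25731_0 had 36.9, 5.50, 10.5, 16.3 and 16.8 UPM, and 130 cells held 50% of its 0 hpa UMIs, the most of the 46 contigs. dd_Smed_v6_55196_0 had 8.33, 0.825, 2.05, 2.11 and 3.39, and dd_Smed_v6_25136_0, which did not pass in this class, had 11.8, 1.92, 2.53, 4.21 and 4.95. dd_Smed_v6_8886_0, at 8.03, 4.26, 2.89, 2.90 and 3.23, had a 1.09-fold range over the 16 hpa libraries with 1 UPM added. Although led by an epidermal lineage-like cluster, it was lower in this class (log2 fold change -1.22 ± 0.32, edgeR adjusted p = 0.00817). By the same test it was higher in ciliated-like (2.41), parenchyma-like (1.59) and intestine-like cells (1.33, log2 scale). The muscle-like contig, dd_Smed_v6_16978_0, had 29.8, 5.36, 13.02, 6.12 and 13.8 UPM and was higher in muscle-like cells by 4.20 ± 0.30 (edgeR adjusted p = 1.87e-07), the only 1 of the 46 to be so, against 17.2% of all contigs tested, while 38 were lower. In neoblast-like cells, from 4 libraries, none of 45 contigs tested was higher by edgeR, also at an unadjusted p under 0.05, and 40 were lower, against 24.5% of all contigs tested that were higher.

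Both contigs of cluster 6 were concentrated. dd_Smed_v6_1933_0 had 76.2, 1.37, 11.8, 1.47 and 12.0 UPM, and 1506 of its 1519 UMIs at 0 hpa were in 1 cell, another than the cell of the 17 contigs. In 16 hpa anterior-facing replicate 1 its 196 UMIs were in 2 cells. Without its highest cell at 0 hpa it no longer met the rule, with a smallest ratio of 0.127. dd_Smed_v6_15272_0 had 13.5, 0.412, 4.401, 4.97 and 5.06 UPM, a 1.12-fold range over the 16 hpa libraries with 1 UPM added, with 50% of its 0 hpa UMIs in 7 cells. Its level in empty droplets was 25.7, 0, 8.0002, 55.3 and 5.39, so that 16 hpa anterior-facing replicate 2 was above 0 hpa there.

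The other 29 contigs were thus mostly carried by several cells, with a median of 19 cells that held 50% of the 0 hpa UMIs, against 189 over the 11020 contigs. With the highest 0 hpa cell of each contig left out, 25 of the 29 still were at least 2-fold above each 16 hpa library, of which 24 met the whole rule. The other, dd_Smed_v6_267_0, was then 4-fold higher at 6 hpa than in all other libraries. Inside the leading cluster the level at 0 hpa was above that of each 16 hpa library for all 29, and at least 2-fold for 13. The smallest ratio, with 1 UPM added, was 1.08, in dd_Smed_v6_6860_0. These cells were among those that the rule used, so that a higher level at 0 hpa was largely fixed. The share over all contigs was not computed. In barcodes with more than 2500 genes, which the rule did not use, 17 of the 29 contigs were at least 2-fold higher at 0 hpa than in each 16 hpa library, against 1.95% of the 11020 contigs. For example, dd_Smed_v6_12035_0 had 0.450, 0 and 0.340 UPM in such barcodes of 16 hpa anterior-facing replicates 1 and 2 and 16 hpa posterior-facing, against 15.4 at 0 hpa, and dd_Smed_v6_1789_0 had 12.4, 11.1 and 26.4, against 57.6 at 0 hpa. These barcodes came from the same libraries and are not separate samples.

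Of the 29 contigs, 10 were at least 2-fold higher in empty droplets at 0 hpa than in each 16 hpa library, against 0.78% of the 11020 contigs. Levels of the 29 contigs in empty droplets were close to those in cells at 0 hpa, with a median ratio, with 1 UPM added, of 0.904. The lowest ratios were those of dd_Smed_v6_55196_0 (0.407), dd_Smed_v6_29517_0 (0.413) and dd_Smed_v6_1933_0 (0.469). Empty droplets therefore held relatively more of the 17 contigs than of the other 29 at 0 hpa. In barcodes with 100 or more but under 1000 UMIs 6 of the 29 were at least 2-fold higher at 0 hpa. This compares with 1.22% of the 11020 contigs.

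At 6 hpa, relative to 0 hpa, the 2 sets differed in direction. Of the 46 contigs 21 were at least 2-fold lower at 6 hpa, against 25.4% of the 11020 contigs, and all 21 were among the 29. A further 12 were at least 2-fold higher, against 1.75%, and 10 of these were among the 17 contigs. Most UMIs of the 17 contigs lay in the same 1 cell at 0 hpa and the same 3 cells at 6 hpa. The 10 are therefore not separate observations. With 1 UPM added, the lowest ratios of 6 hpa to 0 hpa were those of dd_Smed_v6_1933_0 (0.0307), dd_Smed_v6_3211_0 (0.0311) and dd_Smed_v6_788_0 (0.0409). Contigs without a UMI at 6 hpa, such as dd_Smed_v6_29517_0, come lower without the addition. The median ratio, with 1 UPM added, was 0.551 over the 46 contigs and 0.710 over the 11020 contigs. With 1 library at each of these times and a different sort at 6 hpa, no test of time was possible. The study also describes the calcein-gated cells as of lower quality. Here, 69200 barcodes at 6 hpa had 100 or more but under 1000 UMIs, against 1191 to 6050 in the other libraries. In cells, 14.3% of UMIs at 6 hpa came from mitochondrial contigs, against 9.57 to 12.1% in the other libraries. Whether cell quality shaped the difference in direction was not tested.

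At the 2-fold threshold, the 3 contigs just inside were dd_Smed_v6_4336_0, dd_Smed_v6_21541_0 and dd_Smed_v6_6860_0, with smallest ratios of 0 hpa to 16 hpa of 2.04, 2.03 and 2.02. The 3 just outside were dd_Smed_v6_3201_0, dd_Smed_v6_1774_0 and dd_Smed_v6_22356_0, with 1.99, 1.98 and 1.96. dd_Smed_v6_3201_0 had 64.4, 74.2, 30.9, 31.8 and 30.6 UPM, a higher level than any of the 3 inside.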

How the data were processed

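The authors counted UMIs per contig and barcode with Cell Ranger (4 in the file headers, with CASAVA 1.9 in the submitters' processing notes) against transcripts of the dd_Smed_v6 assembly, and deposited raw counts for all barcodes, before any selection of cells. Here, barcodes with 1000 or more UMIs and 200 to 2500 contigs were taken as cells (23946 in all). Intervals are exact 95% Poisson intervals. Cells were clustered in Python 3.11.15 (leidenalg 0.10.2, 11 dimensions, resolution 1), without the 46 contigs. A cluster was named where at least 3 markers and 30% of a class were 2-fold above the median cluster, with 10 UPM added. This rule was set after the data were seen. It left 19.2% of cells unnamed at 0 hpa, 46.0% at 6 hpa and 21.3 to 26.1% at 16 hpa. All markers of the intestine and of the epidermal lineage were recalled from planarian atlases and not checked against them. The neuron markers and most ciliated ones came from human names in the study's annotation tables, which are uncertain as said above. The other lists mixed both sources, and shares of classes depend on these names. UMIs summed per library were tested with edgeR 4.0.16 (quasi-likelihood, TMM, filterByExpr, library as a block, Benjamini-Hochberg over all contigs, threshold 0.05), tested on simulated data, in classes of at least 20 cells per library. Standard errors are the log2 fold change over the square root of F. Fragments were pooled, so that p-values measure only the spread between libraries. These libraries differ in time, wound side, sort or RNAi, so that the spread is not one between replicates alone. DESeq2 1.42.0 was an alternative. Named contigs were those with a human name, the 10 with the largest ratio and level, the 3 on either side of the threshold, the 3 highest of each class, and the 3 highest and lowest by the ratios given. A few others were added after their values were seen. The 46 contigs, the lists and the rules were chosen with earlier results of these data known. Levels at 0 count as below 3 UMIs. No contig sequence was used here.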

Additional observations from a re-analysis of the deposited data

How the results depend on the processing

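The number of contigs that met the rule, 46, was 44 with a minimum of 500 UMIs per cell, 53 with 2000, 40 with median-ratio size factors and 46 with the mitochondrial contigs left out of the total. It was 85 without the upper limit on contigs per cell (40 of them among the 46), 18 at 3-fold and 18 with 10 UPM added. Leaving out each 16 hpa library in turn gave 50 to 140 contigs, the highest without anterior-facing replicate 1 and 98 without the posterior-facing library, by construction of the rule. Alternatives chosen after seeing the data gave 29 without the leading 0 hpa cell, 32 without the 5 cells over 10% and 24 of the 46 without the highest 0 hpa cell of each. The contigs at least 2-fold higher at 6 hpa, 12, were 19 without the leading cell, and those at least 2-fold lower, 21, were 18 to 22 in the alternatives run.

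The 26 contigs called higher in intestine-like cells were 24 to 26 under DESeq2, library totals, no filter, other resolutions, the members kept in the clustering and each library left out. In empty droplets 21 were called, 16 by DESeq2, 19 with library totals and 18 to 22 under the other settings, but leaving out each library gave 8 to 23, with 8 without 0 hpa. The fold changes of 2 single contigs turned negative, dd_Smed_v6_25136_0 in intestine-like cells at resolution 0.5 (-0.18) and dd_Smed_v6_15272_0 with barcodes of 100 or more but under 500 UMIs as empty droplets (-0.0112), and the cause was not tested. Classes and empty droplets were compared within libraries, but time could not be tested because 0 and 6 hpa had a single library each. With total scaling the median contig stood at -0.49 on the log2 scale at 6 hpa relative to 0 hpa and between -0.06 and -0.04 at 16 hpa.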
